A study of Mus musculus with 8 samples.

Results

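Potassium channel genes were taken as the protein-coding genes whose mouse symbol starts with Kcn, which gave 94 of the 21751 protein-coding genes and of the 50599 records in the files. The 48 of them with a mean expected count of at least 10 over the 8 libraries are described here. RNA from whole hearts of male C57BL/6N mice at 12 weeks of age was sequenced in 8 libraries, each from 1 mouse, so the spread within a group is a spread between animals. The Lrpprc knockout group carried loxP sites in both copies of Lrpprc together with a Cre recombinase active in heart and skeletal muscle, whose driving promoter is not given in the sources used here. The group labelled wildtype was Lrpprc loxP/loxP without Cre, so both groups carried the floxed allele, and each group had 4 libraries. Lrpprc encodes a protein that binds mitochondrial RNA and keeps mitochondrial mRNAs stable.

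Potassium channels let potassium ions leave the cell down their gradient, and in heart muscle this outward current ends the action potential and holds the resting membrane potential. Most channels are assembled from 4 pore-forming subunits, or from a pair of subunits in the two-pore-domain class, with accessory subunits that change gating, trafficking or level. In the mouse heart a fast transient outward current and several slower voltage-gated currents carry most of repolarisation, inward rectifiers set the resting potential, and channels sensitive to ATP or G proteins couple the membrane to metabolism and to vagal input.

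Total expected counts were between 35218541 and 47743376 per library, and mitochondrial rRNA took 44.0% to 46.9% of them in the wildtype and 65.6% to 67.8% in the knockout. The normalised count of Lrpprc, which is the expected count divided by the size and length factors of the DESeq2 fit, was 3665 ± 216 (SD, n = 4) in wildtype hearts and 577 ± 48.6 (SD, n = 4) in knockout hearts (log2 fold change -2.67, SE 0.10, DESeq2 adjusted p = 3.77e-153). Knockout replicate 3 stood apart from the other 7 libraries on the second principal component. Of 7 cardiomyocyte markers, which were abundant in every library, 6 were lower and 0 higher in the knockout (median log2 fold change -1.05). Their summed normalised count was between 1022333 and 1122795 in the wildtype and between 477624 and 615149 in the knockout, and the example genes were Pln (-1.46), Ryr2 (-1.40) and Actc1 (-1.15) by log2 fold change. Among markers with a mean expected count of at least 10, the numbers higher and lower were 4 and 0 of 5 for macrophages (Cd68, Cd163, Mrc1 and Csf1r), 1 and 0 of 5 for fibroblasts (Col1a1), 0 and 3 of 5 for smooth muscle (Smtn, Myh11 and Acta2) and 0 and 1 of 5 for pericytes (Vtn). They were 0 and 2 of 5 for Schwann cells (among them Gfra3), 2 and 1 of 3 for neurons (Uchl1 and Tubb3 against Dbh) and 2 and 1 of 3 for skeletal muscle (Tnnt3 and Acta1 against Ckm). Of the 7 skeletal muscle genes listed only these 3 reached the minimum, and Acta1 and Ckm had wildtype means of 3569 and 27899 normalised counts. No call was made among 5 endothelial, 3 adipose, 4 erythroid and 1 T and B cell markers by DESeq2, although edgeR called the T and B cell marker, Cd4, higher. With scaling to counts outside mitochondrial rRNA, 3 endothelial and 2 erythroid markers were higher, pericytes had 3 higher and 1 lower, fibroblasts had 2 higher, and no Schwann cell marker and no skeletal muscle marker was lower. With total-count scaling 2 endothelial, 3 pericyte, 3 Schwann cell and 4 smooth muscle markers were lower and 2 macrophage markers higher. In whole hearts, fewer cells of a type and less RNA per cell cannot be told apart, and this holds for every value that follows.

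By DESeq2 with Benjamini-Hochberg adjustment over all genes tested, 21 of the 48 potassium channel genes were lower in the knockout, 4 were higher and 23 did not pass the threshold of 0.05. Among the protein-coding genes with the same minimum count, 17.9% were called lower and 24.6% higher, and among all records tested 15.5% were lower and 18.2% higher. The 2 groups did not overlap for 20 genes, 17 of them with every knockout value below every wildtype value and 3 with every one above, against 17.6% and 22.2% of the protein-coding genes. With edgeR the numbers were 22 lower and 5 higher, against 21.3% and 25.8% of the protein-coding genes. The median log2 fold change of the 48 genes was -0.53, and 70.8% of them were below 0, against a median of 0.07 and 45.0% for the protein-coding genes. Potassium channel genes together took 0.0976% to 0.108% of the counts outside mitochondrial rRNA in the wildtype libraries and 0.0718% to 0.0779% in the knockout libraries.

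The scaling of the libraries moved these counts without turning the direction of any called member. Total-count scaling shifted the median log2 fold change of all genes by -0.30 and gave 25 lower and 3 higher members, while scaling to counts outside mitochondrial rRNA shifted it by 0.43 and gave 14 lower and 6 higher. Over all records, 6728 genes were called in the main fit, 7836 with total-count scaling and 9061 with scaling to counts outside mitochondrial rRNA. The shares called lower and higher under these 2 scalings were not counted, for these members or for any other list. Relative to the median of all genes, the median of the 48 members was -0.55 under each of the 3 scalings. Over 14 alternative fits, 13 of the 21 lower calls and 2 of the 4 higher calls were kept in every one. Among the 13 were Kcna1, Kcnd2, Kcng2, Kcnh2, Kcnip2, Kcnj12, Kcnj2, Kcnj3, Kcnj5, Kcnn2, Kcnq1 and Kcnv2, and the 2 were Kcne1 and Kcnj4. A minimum mean expected count of 50, which changes the set of genes described and not the fit, leaves out Kcnj4, whose mean was 43.9. Of the 21 members with a mean normalised count of at least 100, 15 were lower, 0 were higher and 6 did not pass (median log2 fold change -0.90), and of the 27 below it 6 were lower, 4 higher and 17 did not pass (median -0.14). The shares of all protein-coding genes called in the same 2 bands were not counted, so this split cannot be set against other genes.

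**Figure D1:**
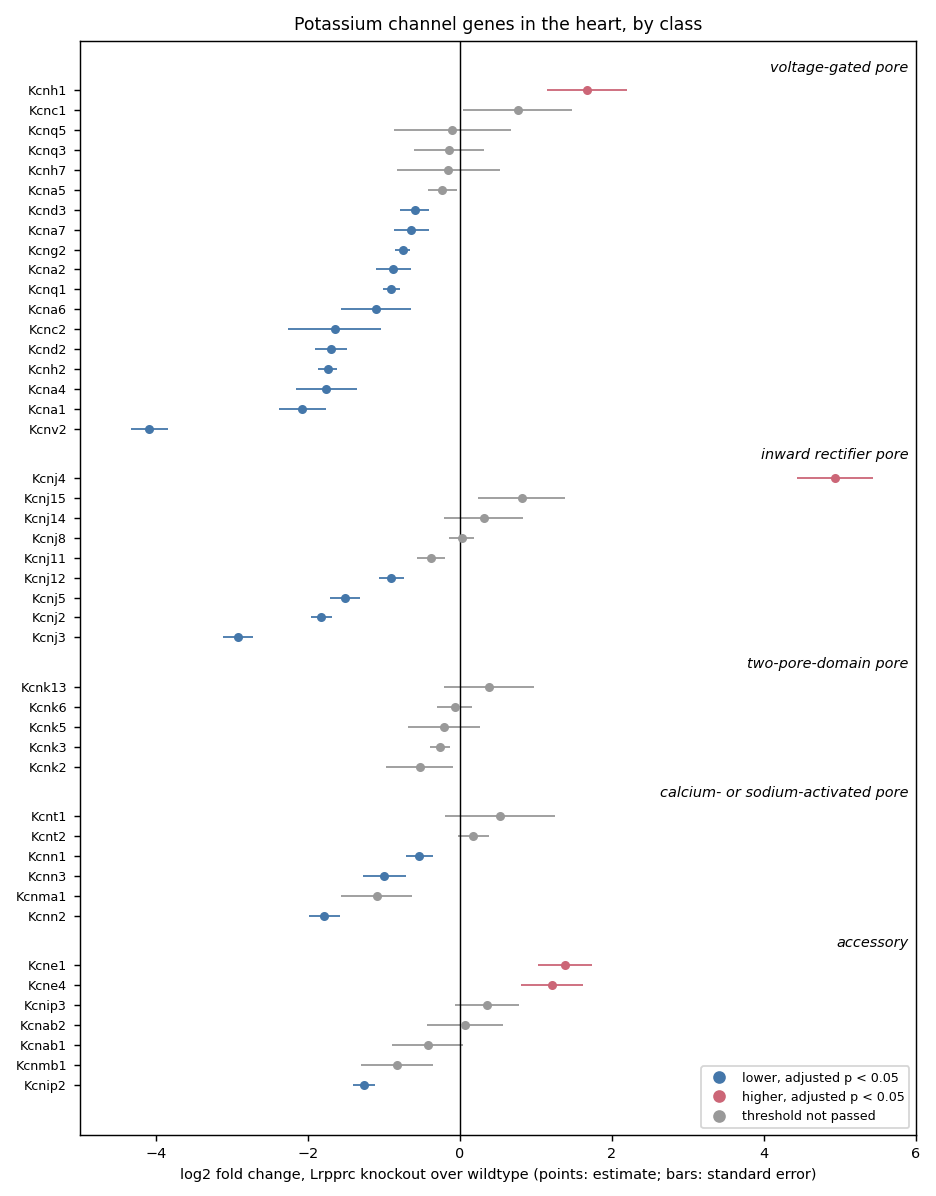
Log2 fold change (Lrpprc knockout over wildtype, horizontal axis) of 45 of the 48 potassium channel genes, grouped by class, with bars for the standard error of the DESeq2 estimate. The plot has 20 genes called lower in blue, the 4 called higher in red and 21 that did not pass the threshold in grey. Kcnv2 lies farthest to the left at -4.08 and Kcnj4 farthest to the right at 4.94, and the 5 genes of the two-pore-domain class are all grey.

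By class, the 21 voltage-gated pore genes had 13 lower, 1 higher and 7 not called, with a median log2 fold change of -0.76. The 9 inward rectifiers had 4 lower, 1 higher and 4 not called (median -0.38), and the 6 calcium- or sodium-activated channels had 3 lower, 0 higher and 3 not called (median -0.76). The 5 genes of the two-pore-domain class had no call (median -0.21), and the 7 accessory genes had 1 lower, 2 higher and 4 not called (median 0.07). Levels were compared between genes as normalised counts per kilobase of effective length. In the wildtype the highest level was that of Kcnip2 at 940.0 ± 37.4 (SD, n = 4), next to Kcnk3 at 939 ± 27.7, and these 2 did not differ beyond their spread. Kcnj11 at 684 ± 79.2, Kcng2 at 648 ± 48.3 and Kcnj3 at 554 ± 78.4 came next, each overlapping its neighbour within 1 SD, and then Kcnj5 at 419 ± 45.4 and Kcnh2 at 352 ± 46.0, which also overlapped. In the knockout the order was Kcnk3 at 784 ± 151, Kcnj11 at 526 ± 151, Kcnip2 at 394 ± 75.4 and Kcng2 at 385 ± 22.2, where neighbours again overlapped within 1 SD, and Kcnj3 stood far lower at 73.3 ± 18.4. Kcnj8 at 226 ± 49.6 then stood above Kcnq1, Kcnj5 and Kcnh2, all of which had been above it in the wildtype.

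**Figure D2:**
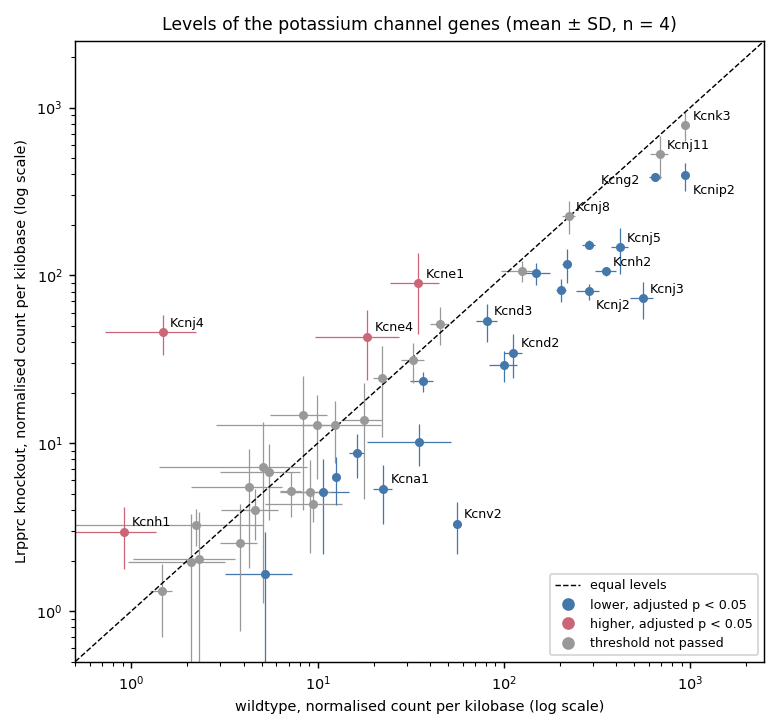
Normalised count per kilobase in the wildtype (horizontal, log scale) against the Lrpprc knockout (vertical, log scale) for the 48 genes, as mean and SD of 4 libraries, with a dashed line for equal levels. Kcnk3, Kcnj11 and Kcnj8 lie near the line, Kcnv2, Kcnj3, Kcnj2 and Kcnh2 lie below it, and Kcnj4, at 1.47 ± 0.75 and 45.7 ± 12.0, lies above it.

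The inward rectifiers of the resting potential moved in opposite directions. Kcnj2 and Kcnj12 encode Kir2.1 and Kir2.2, the main subunits of the strong inward rectifier current of ventricular muscle, and Kcnj4 encodes the related Kir2.3. The 250 bases before the RefSeq start of the gene that rose most (Kcnj4, chr15:79505242-79505491, minus strand), of Kcnj2 (chr11:111065914-111066163, plus strand), of the most reduced inward rectifier (Kcnj3, chr2:55435720-55435969, plus strand) and of Kcnh2 (chr5:24329592-24329841, minus strand) are shown to compare the start regions of genes that moved in opposite directions. They are on GRCm38.p6, written 5′ to 3′ on the gene's strand, with GC boxes (GGGCGG on either strand) in capitals. The RefSeq start of Kcnh2 lies inside the longer gene of the GENCODE annotation, and the other 3 starts are those of GENCODE.
Kcnj4: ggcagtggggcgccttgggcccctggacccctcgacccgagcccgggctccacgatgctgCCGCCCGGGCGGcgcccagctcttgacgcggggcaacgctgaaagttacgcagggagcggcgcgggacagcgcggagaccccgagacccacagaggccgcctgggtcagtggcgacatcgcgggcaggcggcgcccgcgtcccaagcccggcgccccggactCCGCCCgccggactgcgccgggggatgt
Kcnj2: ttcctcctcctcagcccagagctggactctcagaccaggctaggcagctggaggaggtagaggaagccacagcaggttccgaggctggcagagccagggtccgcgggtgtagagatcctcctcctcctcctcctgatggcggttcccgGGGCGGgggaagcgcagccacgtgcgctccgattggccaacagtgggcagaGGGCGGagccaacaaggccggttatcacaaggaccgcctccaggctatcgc
Kcnj3: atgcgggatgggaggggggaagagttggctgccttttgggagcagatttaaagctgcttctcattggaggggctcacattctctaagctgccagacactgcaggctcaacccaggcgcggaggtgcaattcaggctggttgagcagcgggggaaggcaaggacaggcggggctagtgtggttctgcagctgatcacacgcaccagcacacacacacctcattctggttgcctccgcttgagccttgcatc
Kcnh2: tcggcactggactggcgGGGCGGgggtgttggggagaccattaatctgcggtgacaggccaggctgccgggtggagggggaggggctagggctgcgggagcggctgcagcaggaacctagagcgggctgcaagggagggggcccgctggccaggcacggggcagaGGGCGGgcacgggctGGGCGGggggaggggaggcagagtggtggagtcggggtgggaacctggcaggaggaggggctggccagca
Kcnj4 held 3 GC boxes and 35 CpG pairs in this window, Kcnj2 2 and 14, Kcnh2 3 and 14, and Kcnj3 0 and 7, so a GC box was found in the start regions of the risen gene and of 2 reduced genes.

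Kcnj4 (ENSMUSG00000044216.6, chromosome 15 from 79483714 to 79505241, minus strand, GRCm38) was close to the floor of 3 counts in the wildtype, with expected counts of 1, 4, 5 and 3, and had 104, 67, 56 and 111 in knockout replicates 1 to 4. The groups did not overlap (log2 fold change 4.94, SE 0.49, DESeq2 adjusted p = 1.12e-21). The ratio of summed counts, 338 against 13 and scaled to the same depth, was 30.8, with an exact 95% interval of 17.8 to 58.4 that covers counting error only. Kcnj2 (chromosome 11 from 111066164 to 111076821, plus strand) had normalised counts of 1613, 1354, 1296 and 1744 in the 4 wildtype hearts and 458, 357, 444 and 442 in the 4 knockout hearts, given here and below in the order of replicates 1 to 4. It was 3.53-fold lower in the knockout (log2 fold change -1.82, SE 0.14, DESeq2 adjusted p = 3.76e-36), and knockout replicate 2 was the lowest library. Kcnj12 had 484, 469, 471 and 427 in the wildtype and 205, 261, 322 and 204 in the knockout, again without overlap (log2 fold change -0.90, SE 0.17, DESeq2 adjusted p = 7.68e-07). Per kilobase, the rise of Kcnj4 from 1.47 ± 0.75 to 45.7 ± 12.0 left it below Kcnj2, which went from 285 ± 40.2 to 80.6 ± 8.76. The ratio of Kcnj12 to Kcnj2 per kilobase was 0.744, 0.859, 0.902 and 0.608 in the wildtype libraries and 1.11, 1.82, 1.8 and 1.15 in the knockout libraries, so that Kcnj12 exceeded Kcnj2 in every knockout heart and in no wildtype heart. The log2 ratio differed by 0.89 (exact permutation test, two-sided p = 0.0286, adjusted over 8 ratios p = 0.0457), which is the smallest p that 4 against 4 libraries allow.

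Kcnj3 and Kcnj5 encode the paired subunits of the G-protein-gated channel that slows atrial and nodal cells after vagal stimulation. Kcnj3 (chromosome 2 from 55435970 to 55598145, plus strand) fell from 2205, 2056, 1577 and 1852 in the 4 wildtype hearts to 305, 262, 162 and 287 in the 4 knockout hearts, a 7.57-fold reduction (log2 fold change -2.92, SE 0.19, DESeq2 adjusted p = 2.55e-48). Kcnj5 had 1867, 1730.4, 1492 and 1517 in the wildtype and 471, 576, 834 and 437 in the knockout (log2 fold change -1.51, SE 0.20, DESeq2 adjusted p = 8.85e-13). Both genes were separated between the groups, but knockout replicate 3 was the lowest knockout library for Kcnj3 and the highest for Kcnj5. The ratio of Kcnj3 to Kcnj5 per kilobase was 1.34, 1.35, 1.2 and 1.39 in the wildtype and 0.737, 0.518, 0.221 and 0.747 in the knockout (difference in log2 ratio -1.40, exact permutation test, two-sided p = 0.0286, adjusted over 8 ratios p = 0.0457). Without knockout replicate 3 the difference was -1.0. Of 5 atrial markers, 2 were lower and 1 was higher in the knockout. The atrial light chain Myl7 had normalised counts of 3810.5, 4555, 3287 and 4244 in the wildtype and 639, 337, 70.1 and 319 in the knockout (log2 fold change -3.54, SE 0.58, DESeq2 adjusted p = 1.74e-08), and Sln, a regulator of the calcium pump in atria, had 862, 1142, 792 and 1121 in the wildtype and 154, 181, 46.1 and 165 in the knockout (log2 fold change -2.84, SE 0.32, DESeq2 adjusted p = 1.51e-17). Nppa, the atrial natriuretic peptide gene, was higher (log2 fold change 1.73, SE 0.12, DESeq2 adjusted p = 1.38e-48). The summed level of the 5, to which Nppa gave the most counts in every library, was between 22320 and 24909 in the wildtype and between 35603 and 54641 in the knockout, and Myl4, Myl7 and Sln were lowest in knockout replicate 3. Of 5 conduction system markers that reached the minimum 4 were lower, among them Cacna2d2 (-2.27), Hcn4 (-1.77) and Cntn2 (-1.54) by log2 fold change. The summed level of all 6 listed was between 543 and 674 in the wildtype and between 145 and 213 in the knockout. The part of atrial or nodal tissue in the values of Kcnj3 and Kcnj5 was not tested.

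The ATP-sensitive channel pairs a Kcnj11 or Kcnj8 pore with a sulfonylurea receptor encoded by Abcc8 or Abcc9, and opens when ATP is low. Kcnj11 (chromosome 7 from 46093953 to 46100764, minus strand) had normalised counts of 2045, 2107, 1613 and 1869.5 in the wildtype and 1356, 1204, 2096 and 1223 in the knockout and did not pass the threshold (log2 fold change -0.38, SE 0.19, DESeq2 adjusted p = 0.113). The knockout value of replicate 3 lay inside the wildtype range and the other 3 lay below it, and without that library the log2 fold change was -0.60 (DESeq2 adjusted p = 1.46e-06). Total-count scaling also gave a lower call (-0.69, DESeq2 adjusted p = 0.000145), and with scaling to counts outside mitochondrial rRNA the value was 0.03. Kcnj8 had 542, 541, 472 and 472 in the wildtype and 684, 470.1, 442 and 463 in the knockout (log2 fold change 0.02, SE 0.16, DESeq2 adjusted p = 0.933), and was called higher with scaling to counts outside mitochondrial rRNA (0.45, DESeq2 adjusted p = 0.0184). The receptor gene Abcc9, the form of the ventricle and of vessels, was lower, with 9612, 8619, 8179 and 9069 in the wildtype and 4771, 3134, 3397 and 3502 in the knockout (log2 fold change -1.26, SE 0.14, DESeq2 adjusted p = 5.05e-17), whereas Abcc8 had 778 ± 81.6 (SD, n = 4) in wildtype hearts and 779 ± 107 (SD, n = 4) in knockout hearts (log2 fold change 0.00, SE 0.14, DESeq2 adjusted p = 0.988). The ratio of Abcc8 to Abcc9 per kilobase rose from 0.151, 0.181, 0.152 and 0.173 in the wildtype to 0.302, 0.422, 0.389 and 0.499 in the knockout without overlap (difference in log2 ratio 1.28, exact permutation test, two-sided p = 0.0286, adjusted over 8 ratios p = 0.0457). For Kcnj8 over Kcnj11 the log2 ratio differed by 0.41, and the groups overlapped (exact permutation test, two-sided p = 0.143, adjusted over 8 ratios p = 0.163). The other inward rectifiers described, Kcnj14 and Kcnj15, had means under 100 normalised counts, log2 fold changes of 0.31 and 0.81, and no call. Kcnj15 had 41.1, 95.2, 7.61 and 99.0 in the knockout libraries, and it was called higher once replicate 3, the lowest of them, was left out (log2 fold change 1.19, DESeq2 adjusted p = 0.00695).

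The fast transient outward current of mouse ventricle is carried by Kv4.2 and Kv4.3, encoded by Kcnd2 and Kcnd3, with the calcium-binding accessory protein KChIP2 from Kcnip2. Its slow form is carried by Kv1.4 from Kcna4. Kcnd2 (chromosome 6 from 21215503 to 21729805, plus strand) had 581, 624, 478 and 549 in the wildtype and 214, 202, 101 and 171 in the knockout, without overlap (log2 fold change -1.70, SE 0.21, DESeq2 adjusted p = 5.65e-14). Kcnd3 (chromosome 3 from 105452330 to 105674002, plus strand) was less reduced, with 419, 487, 354 and 451 in the wildtype and 288, 230.0, 386 and 232 in the knockout (log2 fold change -0.59, SE 0.19, DESeq2 adjusted p = 0.00866), and here knockout replicate 3 lay above wildtype replicate 3. Its call was lost without wildtype replicate 2 (DESeq2 adjusted p = 0.0502) and with scaling to counts outside mitochondrial rRNA (-0.18, adjusted p = 0.426). Kcnip2 (chromosome 19 from 45791839 to 45816061, minus strand) fell from 1848, 1702, 1849 and 1766 in the wildtype to 931, 774, 586 and 711 in the knockout (log2 fold change -1.26, SE 0.14, DESeq2 adjusted p = 5.65e-17), and as with Kcnd2 the lowest library was knockout replicate 3. Kcnd2 exceeded Kcnd3 per kilobase in every wildtype heart, at ratios of 1.47, 1.36, 1.43 and 1.29, and was below it in every knockout heart, at 0.788, 0.931, 0.278 and 0.781. The log2 ratio differed by -1.13 (exact permutation test, two-sided p = 0.0286, adjusted over 8 ratios p = 0.0457) and by -0.74 without knockout replicate 3. Kcnip2 over the sum of both pore genes did not differ beyond its spread, at 4.95, 4.11, 5.95 and 4.74 in the wildtype and 5.01, 4.83, 3.29 and 4.76 in the knockout (difference in log2 ratio -0.15, exact permutation test, two-sided p = 0.486, adjusted over 8 ratios p = 0.486).

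Kcna4 was called lower only in fits that use the deposited effective lengths. Its expected counts were 90, 84, 45 and 87 in the wildtype and 38, 45, 24 and 80 in the knockout, and wildtype replicate 4 and knockout replicate 4 were alike. The effective length estimated for the gene by RSEM was 2227, 1307, 919 and 4629 bases in the wildtype and 4624, 4238, 2900.5 and 4627 in the knockout, so that the normalised counts became 118, 171, 117 and 41.6 in the wildtype and 25.2, 33.7, 26.2 and 44.7 in the knockout. With these lengths the gene passed the threshold (log2 fold change -1.75, SE 0.40, DESeq2 adjusted p = 8.76e-05), and without a length offset it did not (-0.52, DESeq2 adjusted p = 0.258), nor with edgeR (-0.53, edgeR adjusted p = 0.228). The ratio of Kcna4 to Kcna5 had a log2 difference of -1.44 with overlapping groups (exact permutation test, two-sided p = 0.0571, adjusted over 8 ratios p = 0.0762).

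**Figure D3:**
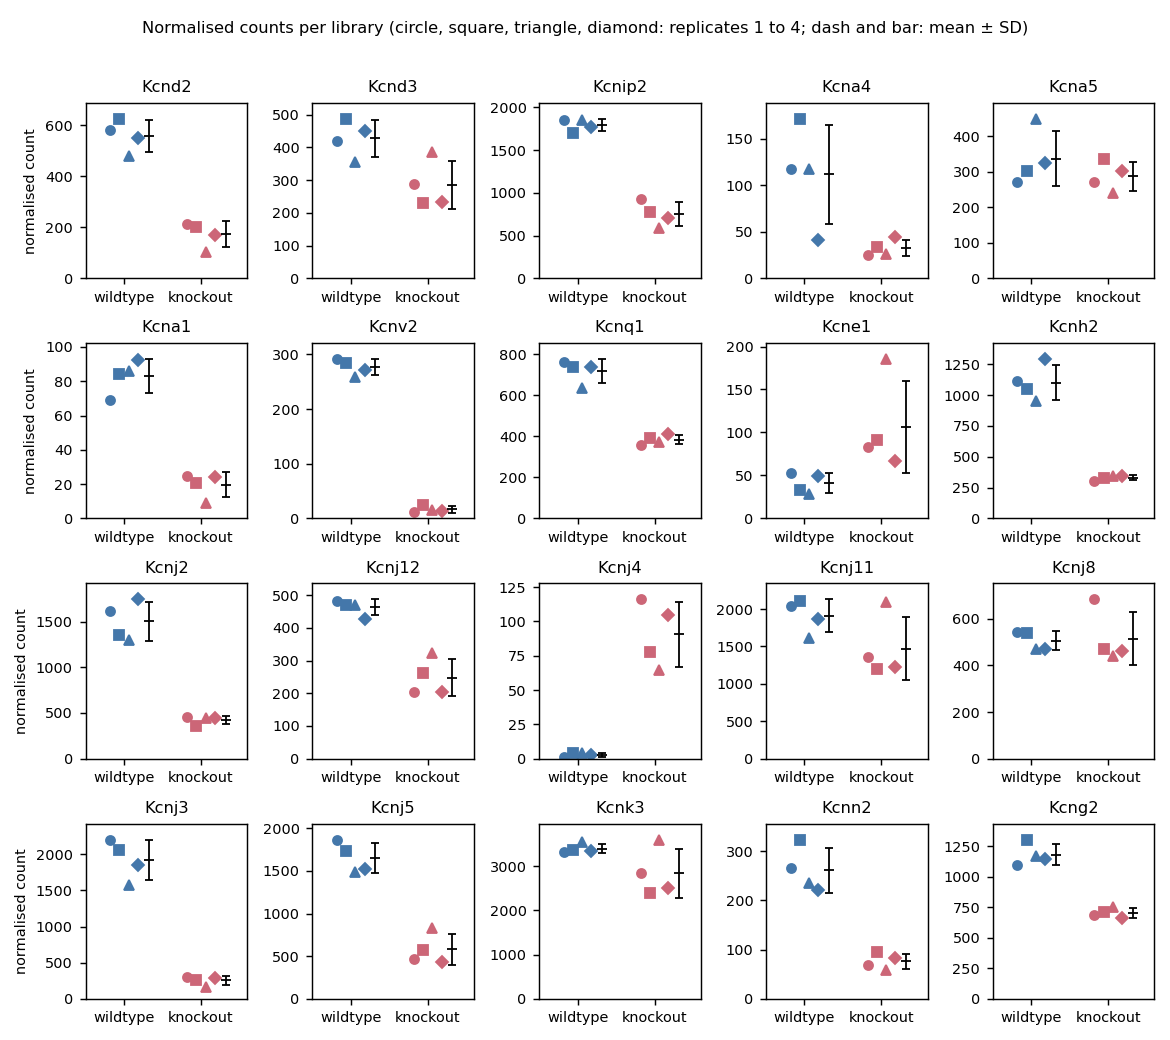
Normalised counts (vertical axes, each from 0) of 20 potassium channel genes in the 4 wildtype (blue) and 4 Lrpprc knockout (red) libraries, with the mean and SD beside them. For Kcnv2, Kcnj2, Kcnj3, Kcnh2 and Kcnd2 every knockout point lies below every wildtype point. Knockout replicate 3 (triangle) lies apart in Kcne1 and Kcnj11.

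Kv1.5 from Kcna5 carries one of the slower voltage-gated currents, and silent subunits such as those of Kcnv2 and Kcng2 form no channel alone but change the properties of other voltage-gated channels. Kcnv2 (ENSMUSG00000047298.3, chromosome 19 from 27322588 to 27337179, plus strand) had the largest reduction of all described members, from 291, 285, 258 and 272 in the 4 wildtype hearts to 11.2, 24.3, 16.1 and 14.1 in the 4 knockout hearts. This was a 17.0-fold difference (log2 fold change -4.08, SE 0.24, DESeq2 adjusted p = 5.73e-62), many times the spread within either group. Kcng2, the most abundant voltage-gated pore gene per kilobase in both groups, had 1099.7, 1307, 1172 and 1151 in the wildtype and 685, 714, 755 and 661 in the knockout (log2 fold change -0.75, SE 0.0996, DESeq2 adjusted p = 1.37e-12). Kcna5 had 270.1, 303, 448 and 325 in the wildtype and 271, 336, 241 and 301 in the knockout, groups that overlapped (log2 fold change -0.23, SE 0.19, DESeq2 adjusted p = 0.378), and it was called lower with total-count scaling (-0.52, adjusted p = 0.0363), while its sign turned with scaling to counts outside mitochondrial rRNA (0.20). Kcna1, Kcna2 and Kcna6, best known from axons, and Kcna7 of striated muscle were lower. Kcna1 had 69.0, 84.5, 86.3 and 92.2 in the wildtype and 25.0, 20.9, 8.8 and 24.3 in the knockout (log2 fold change -2.07, SE 0.31, DESeq2 adjusted p = 2.9e-10), and was lowest in knockout replicate 3. Log2 fold changes were -0.87 for Kcna2, -1.10 for Kcna6 and -0.64 for Kcna7, with DESeq2 adjusted p of 0.000841, 0.0479 and 0.0202, and the groups overlapped for Kcna6. The call of Kcna6 was lost without wildtype replicate 1, 2 or 4 or knockout replicate 1 or 3, and that of Kcna7 without wildtype replicate 1 or 3 or knockout replicate 2 or 3. With scaling to counts outside mitochondrial rRNA the calls of Kcna2, Kcna6 and Kcna7 were all lost. The summed level of all 6 Schwann cell markers listed was between 285 and 316 in the wildtype and between 175 and 272 in the knockout. The 8 neuronal markers summed to between 123 and 176 normalised counts in the wildtype and between 697 and 2390.1 in the knockout. Of the 3 with a mean of at least 10, Uchl1 was higher (99.5 ± 12.9 in wildtype and 1279 ± 703 in knockout hearts, log2 fold change 3.69), Tubb3 was higher (18.5 ± 12.5 and 154 ± 36.1, log2 fold change 3.11) and Dbh was lower (30.3 ± 4.99 and 2.91 ± 2.16, log2 fold change -3.35). Chat was at 0 in every library, and Th and Snap25 were near 0. The part of nerve in the Kcna values was not tested. Among the fast-gating Kcnc genes, all under 50 normalised counts in every library, Kcnc2 was lower (log2 fold change -1.65, SE 0.61, DESeq2 adjusted p = 0.0238), with 27.3, 11.5, 23.1 and 14.0 in the wildtype and 5.04, 13.0, 2.96 and 3.19 in the knockout, and its call was lost without wildtype replicate 1 or 3 or knockout replicate 1, 3 or 4 and with scaling to counts outside mitochondrial rRNA (-1.21, adjusted p = 0.104). Without knockout replicate 2 its log2 fold change was -2.34. Kcnc1 was called higher by edgeR (adjusted p = 0.00851) but not by DESeq2 (log2 fold change 0.76, SE 0.72, DESeq2 adjusted p = 0.45). Without wildtype replicate 3 DESeq2 called it higher too (2.02, adjusted p = 0.00178). That library, at 8.58, 2.35, 43.3 and 5.22 for the wildtype libraries in order, had an effective length of 1728 bases against 7592 to 7597 in the other wildtype libraries.

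Kcnq1 encodes the pore of the slow delayed rectifier and Kcne1 its accessory subunit, which slows the opening of the channel. Kcnq1 (chromosome 7 from 143106362 to 143427042, plus strand) fell from 763, 739, 634 and 739 in the wildtype to 359, 391, 373 and 413 in the knockout (log2 fold change -0.90, SE 0.11, DESeq2 adjusted p = 1.3e-14), and Kcne1 (chromosome 16 from 92345982 to 92359468, minus strand) rose from 52.6, 32.8, 28.7 and 49.8 in the wildtype to 83.1, 90.7, 185 and 66.5 in the knockout (log2 fold change 1.39, SE 0.36, DESeq2 adjusted p = 0.000672). Knockout replicate 3 was the highest library for Kcne1, and without it the log2 fold change was 0.98 (DESeq2 adjusted p = 0.00494). The 2 genes differed between the groups in opposite directions, with a ratio of Kcne1 to Kcnq1 per kilobase of 0.147, 0.0945, 0.0966 and 0.144 in the wildtype and 0.494, 0.495, 1.06 and 0.343 in the knockout (difference in log2 ratio 2.21, exact permutation test, two-sided p = 0.0286, adjusted over 8 ratios p = 0.0457). The effective length of Kcne1 was 1157, 1562, 1773 and 1058 bases in the wildtype and 879, 950, 959 and 1121 in the knockout. These lengths enter its normalised counts and the ratio, and its call was kept without a length offset. Kcne4, whose product inhibits several voltage-gated channels, was also called higher, with 23.4, 28.9, 63.2 and 61.7 in the wildtype and 71.9, 131, 57.1 and 153 in the knockout (log2 fold change 1.22, SE 0.41, DESeq2 adjusted p = 0.0112). Its groups overlapped, and the call was lost without wildtype replicate 1 or 2 or knockout replicate 2 or 4 and with total-count scaling. The antisense transcript Kcnq1ot1, which overlaps Kcnq1 and is no member, had 2934 ± 79.6 (SD, n = 4) in wildtype hearts and 3094 ± 299.8 (SD, n = 4) in knockout hearts (log2 fold change 0.08, SE 0.094, DESeq2 adjusted p = 0.577). Kcnq3 and Kcnq5, subunits of the M-type current of nerve cells and of related channels, had no call, with log2 fold changes of -0.14 and -0.10. That of Kcnq5 was -1.33 without knockout replicate 3 (DESeq2 adjusted p = 0.212).

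Kcnh2, the gene of the rapid delayed rectifier known as ERG, and Kcnh1, of the ether-a-go-go channel of brain, moved in opposite directions. Kcnh2 (chromosome 5 from 24319589 to 24351604, minus strand) had 1117, 1047, 951 and 1291 in the wildtype and 307, 325, 344 and 346 in the knockout, where the 4 hearts lay close together and far below the wildtype range (log2 fold change -1.74, SE 0.13, DESeq2 adjusted p = 4.96e-40). Kcnh1 had only 4, 4, 12 and 9 expected counts in the wildtype and 29, 14, 12 and 22 in the knockout (log2 fold change 1.68, SE 0.53, DESeq2 adjusted p = 0.00663), and its call was lost without knockout replicate 1 (1.38, DESeq2 adjusted p = 0.0578). Kcnh7 had no call, and its log2 fold change of -0.15 was -0.93 without knockout replicate 4 and 0.25 without knockout replicate 3.

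Of the two-pore-domain channels, which carry background current, Kcnk3, encoding the acid-sensitive TASK-1, was the most abundant pore-forming gene per kilobase of all members in both groups. Its normalised counts were 3324, 3360.4, 3543 and 3353 in the wildtype and 2838, 2398, 3602 and 2503 in the knockout, where replicate 3 lay above every wildtype library and the other 3 lay below (log2 fold change -0.26, SE 0.14, DESeq2 adjusted p = 0.138). Without that library it was called lower (-0.40, DESeq2 adjusted p = 3.55e-05). With total-count scaling it was also called lower (-0.57, DESeq2 adjusted p = 1.38e-06), and with scaling to counts outside mitochondrial rRNA its sign turned (0.15). Kcnk2, the stretch-sensitive TREK-1 gene, had 17.2, 16.2, 14.4 and 19.7 in the wildtype and 12.7, 13.3, 15.5 and 7.05 in the knockout (log2 fold change -0.53, SE 0.44, DESeq2 adjusted p = 0.381). Kcnk5, Kcnk6 and Kcnk13 had log2 fold changes of -0.21, -0.07 and 0.38 and no call, and that of Kcnk13 was -0.22 without knockout replicate 4.

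All 3 small-conductance calcium-activated channel genes described were lower. Kcnn2, which has a role in atrial and nodal repolarisation, had 265, 323, 235 and 221 in the wildtype and 68.7, 94.3, 58.0 and 82.9 in the knockout (log2 fold change -1.78, SE 0.21, DESeq2 adjusted p = 2.82e-16). Kcnn3 had 68.3, 63.0, 64.9 and 63.2 in the wildtype and 19.1, 40.2, 29.8 and 41.2 in the knockout (log2 fold change -0.99, SE 0.28, DESeq2 adjusted p = 0.00203) and Kcnn1 had 247, 244, 355 and 291 in the wildtype and 238, 195, 179 and 176 in the knockout (log2 fold change -0.53, SE 0.18, DESeq2 adjusted p = 0.0112), both without overlap. The calls of Kcnn1 and Kcnn3 were lost with scaling to counts outside mitochondrial rRNA, and that of Kcnn1 also without wildtype replicate 3 or knockout replicate 4. Kcnma1, the large-conductance channel of smooth muscle, did not pass the threshold in the main DESeq2 fit, with 24.0, 40.2, 35.7 and 12.4 in the wildtype and 14.8, 15.9, 9.5 and 12.0 in the knockout (log2 fold change -1.09, SE 0.47, DESeq2 adjusted p = 0.0562). It was called lower by edgeR (adjusted p = 0.035), with total-count scaling (DESeq2 adjusted p = 0.0115) and without wildtype replicate 4 (-1.35, DESeq2 adjusted p = 0.0115). DESeq2 also called Kcnma1 lower without a length offset (adjusted p = 0.0402) and with at least 10 counts in 4 libraries (adjusted p = 0.0476). Its accessory subunit Kcnmb1 had 20.1, 43.6, 39.1 and 43.4 in the wildtype and 33.5, 18.5, 5.76 and 24.5 in the knockout (log2 fold change -0.83, SE 0.47, DESeq2 adjusted p = 0.171). The smooth muscle markers summed to between 7663 and 9523 in the wildtype and between 2547 and 5232 in the knockout, lowest in knockout replicate 3, in which Kcnma1 and Kcnmb1 were lowest too. The part of smooth muscle in these values was not tested. The sodium-activated channel genes Kcnt1 and Kcnt2 had log2 fold changes of 0.53 and 0.18 and no call. That of Kcnt1 was -0.20 without knockout replicate 3, and Kcnt2 was called higher with scaling to counts outside mitochondrial rRNA (0.61, DESeq2 adjusted p = 0.0135) and turned to -0.11 with total-count scaling.

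The remaining accessory genes had means under 100 normalised counts. Kcnip3, a relative of Kcnip2, was not called (log2 fold change 0.36, SE 0.42, DESeq2 adjusted p = 0.556). Kcnab1 and Kcnab2, beta subunits of Kv1 channels, had -0.42 and 0.07 (DESeq2 adjusted p = 0.532 and 0.934). Kcnab1 was called lower by edgeR (adjusted p = 0.0215) and by DESeq2 without a length offset (-0.79, DESeq2 adjusted p = 0.0239). Without wildtype replicate 3 the log2 fold change of Kcnab2 was 0.69 (DESeq2 adjusted p = 0.223). The effective length of Kcnab1 ranged from 1062 to 3256 bases among the knockout libraries. Exons of Kcnab2 overlap those of Gm16334 on the same strand, so reads there could be split between the genes.

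The makeup of the pore-forming genes was compared within each library, where the scaling between libraries cancels. The summed level of the 41 pore-forming genes was between 5423 and 5950 normalised counts per kilobase in the wildtype and between 3039 and 3751 in the knockout. Of that sum, the two-pore-domain class took 17.3% ± 1.2 (SD, n = 4) in wildtype hearts and 25.1% ± 1.79 (SD, n = 4) in knockout hearts, without overlap (exact permutation test, two-sided p = 0.0286, adjusted over 4 classes p = 0.0571), and most of that share was Kcnk3, which went from 16.4% ± 1.15 to 23.7% ± 2.16. The voltage-gated class took 35.3% ± 1.13 (SD, n = 4) in wildtype hearts and 31.1% ± 2.4 (SD, n = 4) in knockout hearts, again without overlap (exact permutation test, two-sided p = 0.0286, adjusted over 4 classes p = 0.0571). These differences had the smallest p that the design allows and did not pass 0.05 after adjustment. For the inward rectifiers the shares were 41.8% ± 2.51 (SD, n = 4) in wildtype hearts and 37.5% ± 1.54 (SD, n = 4) in knockout hearts (exact permutation test, two-sided p = 0.0571, adjusted over 4 classes p = 0.0762), and for the calcium- or sodium-activated channels 5.63% ± 0.519 (SD, n = 4) in wildtype hearts and 6.21% ± 0.972 (SD, n = 4) in knockout hearts (exact permutation test, two-sided p = 0.4, adjusted over 4 classes p = 0.4). Within the inward rectifiers, Kcnj3 went from 9.65% ± 1.02 to 2.28% ± 0.701 of the pore-forming total, Kcnj11 from 11.9% ± 0.915 to 15.8% ± 2.82 and Kcnj8 from 3.88% ± 0.18 to 6.94% ± 1.67.

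**Figure D4:**
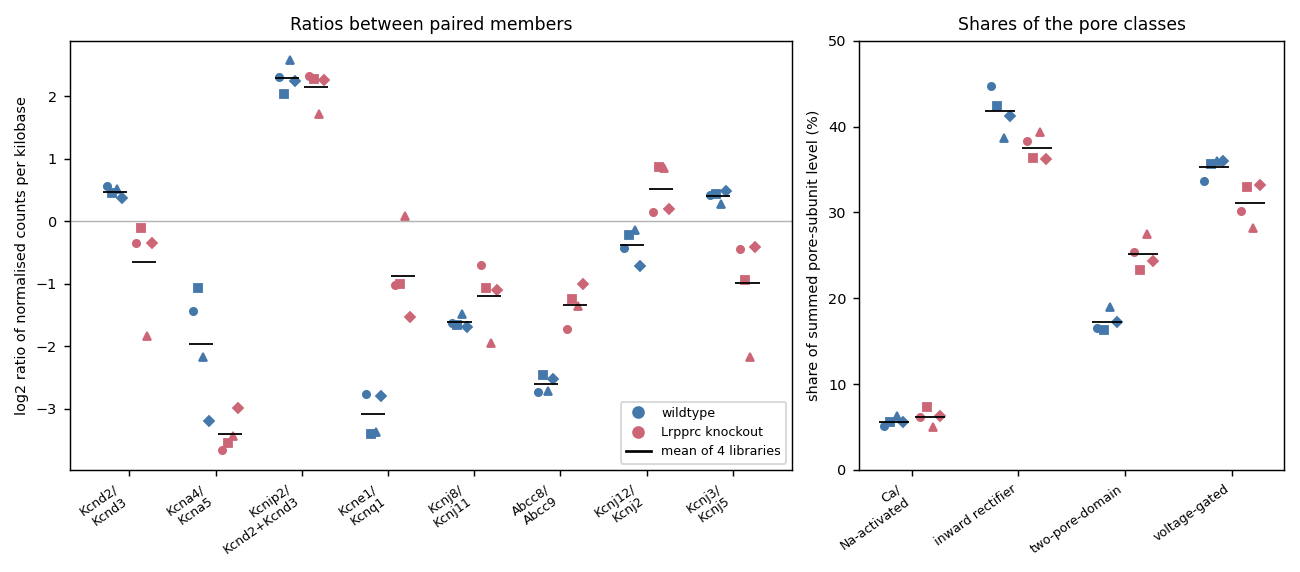
Left, log2 ratios of normalised counts per kilobase for 8 pairs of genes in each wildtype (blue) and Lrpprc knockout (red) library, with lines at the group means. Right, share of the summed level of the pore-forming genes, in percent, taken by each class in the same libraries. The groups are apart for Kcnd2 over Kcnd3, Kcne1 over Kcnq1, Abcc8 over Abcc9, Kcnj12 over Kcnj2 and Kcnj3 over Kcnj5, and they overlap for the other 3 ratios. Replicates 1 to 4 are circle, square, triangle and diamond.

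Of 25 further genes whose proteins assemble with, anchor or modulate potassium channels, 21 had a mean expected count of at least 10, of which 2 were higher and 4 lower, where the protein-coding genes had 24.6% higher and 17.9% lower. With scaling to counts outside mitochondrial rRNA the numbers were 11 higher and 2 lower, while total-count scaling gave 2 higher and 9 lower. The LIM-domain genes Fhl1 and Fhl2 moved in opposite directions, Fhl1 from 1429, 1253, 1603 and 1466 in the wildtype to 8701, 6392, 8946 and 7626 in the knockout (log2 fold change 2.46, SE 0.14, DESeq2 adjusted p = 4.78e-71) and Fhl2 from 22079, 22841, 25101 and 21202 in the wildtype to 8356, 9014, 7421 and 6683 in the knockout (log2 fold change -1.54, SE 0.12, DESeq2 adjusted p = 1.21e-36). Besides Abcc9, the ankyrin gene Ank2 (-0.61) and Amigo1, a partner of voltage-gated channels (-0.39), were lower, and the calmodulin gene Calm2 (0.82) was higher, by log2 fold change. With scaling to counts outside mitochondrial rRNA the value of Amigo1 turned to 0.04 and that of Ank2 was -0.18. Of 15 transcription factors known from the control of cardiac repolarisation, 10 were lower and 0 higher, beside the same 17.9% and 24.6% of the protein-coding genes, and the numbers were 3 lower and 1 higher with scaling to counts outside mitochondrial rRNA. Hopx had 2183, 2157, 1769 and 2119 in the wildtype and 589, 429, 579 and 398 in the knockout (log2 fold change -2.05, SE 0.16, DESeq2 adjusted p = 4.87e-37), and Tbx5 (-1.21) and Irx4 (-0.95), of atrial and ventricular identity, were also lower. Of 9 genes of the sodium-potassium pump, which restores the potassium gradient, 4 were higher and 2 lower, beside the 24.6% and 17.9% above. Its beta subunit Atp1b1 was higher (log2 fold change 0.83, SE 0.0963, DESeq2 adjusted p = 1.78e-16) and the regulator Fxyd5 was higher (log2 fold change 0.91, SE 0.23, DESeq2 adjusted p = 0.000454). Of these pump genes, 2 were higher and 3 lower after total-count scaling, and 5 were higher and 1 lower after scaling to counts outside mitochondrial rRNA. The 17.9% and 24.6% belong to the main fit, and the shares of all protein-coding genes under the other 2 scalings were not counted.

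A RefSeq start region was found for 33 of the 48 genes. A GC box lay in its 250 upstream bases in 46.7% of the 15 genes called lower, 66.7% of the 3 called higher and 40.0% of the 15 not called. The share was 32.9% among the 27025 start regions of all genes and 58.2% among the 10398 of protein-coding genes with the minimum count. TATAAA on either strand was found in 0% of the 33, against 13.0% of all start regions and 6.90% of those of the protein-coding genes. These are descriptions of letters in a window, and no test was made of them.

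The 46 members below the minimum had 14 genes without a count in any library, among them Kcne2, and 16 had an adjusted p. Of those 16, 1 was called higher (Kcnu1) and 1 lower (Kcnk1), which are named because they are the only ones. Just inside the minimum was Kcnq5, with a mean expected count of 10.6, and just outside it were Kcnd1 and Kcng4 with 8.88 each and Kcnn4 with 8.12.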

How the data were processed

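Total RNA of whole hearts was sequenced after depletion of cytoplasmic rRNA, and the 8 libraries were grouped by their titles. The authors made the deposited expected counts with RSEM 1.2.31 and Bowtie2, from stranded paired-end reads against GENCODE transcripts (mm10) with mitochondrial sequences extended by 50 adenines. RSEM divides reads between genes and isoforms, so that the deposited effective length, another value, can differ between libraries for 1 gene. The authors' table of their own comparison holds fold changes and p-values and was not used, and 8 columns of a normalised-count table matched no label and were not used.

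Expected counts were rounded. DESeq2 1.42.0 in R 4.3.3 modelled genotype alone over all genes and libraries, with size factors by the median of ratios and the effective lengths as an offset, and p was adjusted by Benjamini-Hochberg (threshold 0.05). Ratios and class shares were compared by exact permutation tests (two-sided, 70 assignments, so that p cannot go below 0.0286). Alternatives were edgeR 4.0.16 (quasi-likelihood, TMM), no length offset, at least 10 counts in 4 libraries, scaling to the total count or to the counts outside mitochondrial rRNA, a minimum mean of 50, a replicate block and leaving out each library. Scripts were tested on simulated data. Symbols and GRCm38 coordinates came from GENCODE, which matched 50339 of 50563 identifiers, and start regions came from RefSeq (GRCm38.p6).

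The replicate numbers did not pair the samples, since deviations from the group means of same-numbered libraries correlated between -0.05 and 0.09. Replicates differed by more than sampling noise, so each library counted once. Intervals and floors cover counting error only.

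Named members were the known cardiac channel genes, in each subfamily the most abundant member and the largest rise and fall past the threshold, and the 5 largest changes in each direction at a mean of at least 100 normalised counts without overlap. Of other lists the 3 largest changes past the threshold were named. Further members and list genes were named to account for all 48 and for short lists, after their values were seen. Some members and list genes enter the counts and are not reported by name here. The members and lists were chosen with earlier results of these data known.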

Additional observations from a re-analysis of the deposited data

Results flagged for a closer look

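Of 82 groups of 4 libraries checked, for the named members, the ratios and the class shares, 8 had 1 library whose gap to the nearest of the others exceeded Dixon's 95% critical value, while chance gives about 1 in 20, or 4.1. Of the 8, 3 were knockout replicate 3. Its normalised count of Kcnj11 was 2096, where the other knockout libraries had 1204 to 1356. Its log2 ratio of Kcnd2 to Kcnd3 was -1.84, against -0.36 to -0.10, and its log2 ratio of Kcnip2 to the sum of Kcnd2 and Kcnd3 was 1.72, against 2.25 to 2.33. Knockout replicate 2 had 357 normalised counts of Kcnj2, against 442 to 458, and knockout replicate 1 had 684 of Kcnj8, against 442 to 470.1. In the wildtype, replicate 3 had 55.9 normalised counts of Kcnab1, against 34.8 to 36.9, and 3543 of Kcnk3, against 3324 to 3360.4. The share of the voltage-gated class in the summed level of the pore-forming genes was 33.6% in wildtype replicate 1, against 35.6% to 36.0%.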

How the results depend on the processing

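The following 4 counts moved by more than 1.5 times. At a minimum mean expected count of 50 the potassium channel genes called higher were 2 instead of 4, and the channel partners were 11 higher and 2 lower with scaling to counts outside mitochondrial rRNA and 9 lower with total-count scaling. The other 202 values of the counts, ratios, shares and Lrpprc kept their direction and side of the threshold, or stayed within 1.5 times. Leaving out each library in turn gave 18 to 21 lower and 3 to 5 higher members. No called member turned direction. Among the known cardiac channel genes and others named by rule, the log2 fold change of members without a call turned with scaling to counts outside mitochondrial rRNA in Kcna5 (0.20), Kcnab1 (0.022), Kcnj11 (0.033) and Kcnk3 (0.15), and with total-count scaling in Kcnj8 (-0.28) and Kcnt2 (-0.11). The sign turned in at least 1 fit without a library for 10 of the 23 members without a call. The log2 fold change of Kcnj8, near 0, ranged from -0.14 to 0.089 when 1 library was left out. With the replicate number as a block, the lower members were 17, with the calls of Kcna6, Kcna7, Kcnc2 and Kcnn1 lost, and 4 were higher. The cause of these moves was not tested. Members with under 100 normalised counts rest on few reads, so a missed threshold there says little.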
